A study of Rattus norvegicus with 4 samples.

Results

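The p53 target genes described here are 9 genes that the transcription factor p53 is known to switch on, Cdkn1a, Ccng1, Gadd45a, Mdm2, Bax, Bbc3, Pmaip1, Tp53inp1 and Sesn1. They were measured in poly(A) RNA of cultured hippocampal neurons with and without knockdown of Gld2. Each member was taken as the probe set whose single gene symbol in the platform annotation was that name, and the brightest by its mean over the 4 arrays was kept where a gene had several. All 9 had a probe set, among 14497 genes tested and 28826 probe sets on the array. The study used primary cultures of hippocampal neurons from rat embryos, 2 treated with an shRNA against Gld2 and 2 with a scrambled control shRNA, and no other treatment, strain, age or genotype was given. Gld2 (gene symbol Tent2) adds adenosines to the tails of chosen mRNAs in the cytoplasm. Poly(A) RNA was captured on poly(U) Sepharose and eluted by heat, then labelled for whole-transcript Affymetrix arrays, so the amount of a transcript and its recovery by its tail cannot be told apart. Nothing in the labels shows that the 2 cultures of a group were prepared apart, so the spread between them may be technical. The p-values rest on such spread alone, that of the gene itself and that shared over all genes. Below, knockdown cultures are those given Gld2 shRNA and controls those given scrambled shRNA, replicate 1 first in each pair of values.

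p53 is held at a low level in unstressed cells by MDM2, a ubiquitin ligase whose own gene p53 activates, which closes a feedback loop. DNA damage and other stresses release p53, and its targets then stop the cell cycle, repair DNA, limit oxidative damage or start death through mitochondria. Neurons have left the cell cycle, and in them p53 is best known for its part in death after injury.

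The DNA that p53 binds is built from 2 copies of a decamer, and the members differ in whether such a pair lies next to their start site. The closest match to 2 directly adjacent p53 consensus decamers is shown for the 6 members with a RefSeq promoter window of assembly GRCr8 (250 bases before to 50 after a start site). The central bases of each decamer are in capitals, and the consensus reads the same on both strands.
Cdkn1a: gaaCATGtcttgaCTTGttc
Ccng1: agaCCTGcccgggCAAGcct
Pmaip1: cggCTTGccccggCAAGttg
Sesn1: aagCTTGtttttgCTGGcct
Gadd45a: tagCTTGgtggagCTAGcgt
Mdm2: gggGTAGcctaggAGCGgcc
The Cdkn1a match (chr20:7150731-7150750, plus strand) and the Ccng1 match (chr10:25685099-25685118, minus strand) each had 1 mismatch in 20 positions. Of 33469 promoter windows, 0.0717% held a match that close. The matches of Pmaip1 (chr18:62255800-62255819, plus strand) and Sesn1 (chr20:46948547-46948566, plus strand) had 3 mismatches, and 6.18% of windows held a match with 3 or fewer. The best matches of Gadd45a (chr4:97486925-97486944, minus strand) and Mdm2 (chr7:55200745-55200764, minus strand) had 4 and 5, reached by 29.7% and 76.2% of windows. The p53 elements of Gadd45a and Mdm2 are known to lie in introns, outside these windows. A match is a description of letters and shows no binding.

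The targeted transcript was lower in the cultures labelled Gld2 shRNA. Tent2 (probe set 10820478) stood at 9.50 and 9.35 under knockdown against 10.73 and 10.67 in the controls, on the log2 RMA scale of all levels given here. Of 14497 genes, 245 (1.69%) were higher and 349 (2.41%) were lower under knockdown at an adjusted p under 0.05 by limma with Benjamini-Hochberg adjustment over all genes. Over all genes the log2 differences had a median of -0.02. The split of calls moved with centring. It was 218 higher and 94 lower with each array centred on the median of the genes tested, and 558 and 1367 with the median of all its probe sets. It also moved with the culture left out. Without scrambled shRNA replicate 1 it was 82 higher and 3 lower, without scrambled shRNA replicate 2 it was 85 and 7, and without Gld2 shRNA replicate 1 or 2 it was 1283 and 1406 or 172 and 99. In the same cultures 13 of 13 measured interferon response genes rose, a list drawn up with that rise known, with a median log2 difference of 3.44. Medians of the 4 arrays over all probe sets ran from 8.41 to 8.48.

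Of the 9 p53 target genes, 2 fell in the Gld2 shRNA cultures, Gadd45a and Tp53inp1, 0 rose and 7 did not pass the test. Falls at that threshold made up 2.41% of all genes and rises 1.69%. The best known readouts of p53 activity, Cdkn1a and Mdm2, had differences near 0. Of the 4 members tied to cell death, Tp53inp1 is the one that fell, and Bax, Bbc3 and Pmaip1 had values slightly above 0 that did not pass. A second Bax probe set lay below 0. In log2 differences, Gld2 shRNA minus scrambled shRNA, the 9 members ran from -0.56 to 0.18. Their median was -0.08, against -0.02 over all genes. Genes at or above the median level, which include 8 of the 9 members, had a median of -0.06. At an unadjusted p under 0.05, 3 members were lower and 1 higher, against 16.2% and 9.24% of all genes. The groups did not overlap in 9 of 9 members, 5 lower and 4 higher. Of all genes 58.5% had groups that did not overlap, 34.5% lower and 24% higher. With 2 cultures a group, an exact permutation test of a single gene cannot go below a two-sided p of 0.333, so the calls rest on the spread shared over all genes.

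**Figure D1:**
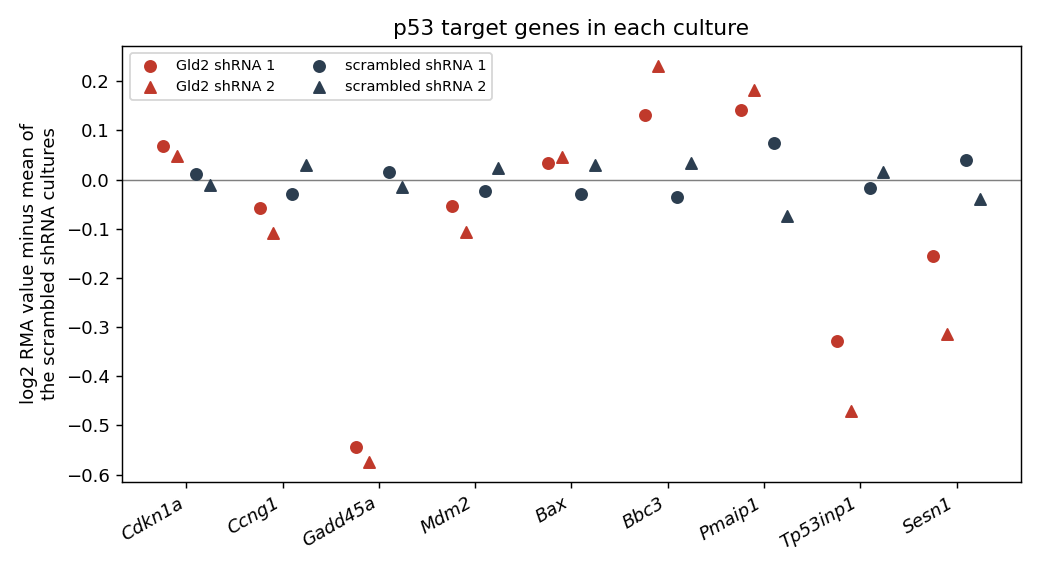
Log2 RMA value of each p53 target gene in each culture, minus the mean of the scrambled shRNA cultures. Both Gld2 shRNA cultures (red) lie far below both controls (dark) for Gadd45a and Tp53inp1, whereas for Cdkn1a and Bax the 4 cultures lie close together.

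Gadd45a had the largest difference of the 9. It encodes a small stress-induced protein that takes part in growth arrest and DNA repair and activates stress kinases. Gadd45a (probe set 10862867) stood at 9.51 and 9.47 under knockdown against 10.06 and 10.03 in the controls. The 2 cultures of each group lay close together, and the groups were well apart. Group means were 9.49 ± 0.0216 (SD, n = 2) and 10.05 ± 0.0209 (SD, n = 2). The log2 difference was -0.56 (SE 0.0600), and its 95% confidence interval ran from -0.71 to -0.41. Knockdown cultures held 67.9% of the control level (adjusted p = 0.00944, limma). Of all genes tested, 236 had a larger absolute difference. Gadd45a is short, and genes of its length decile had a median difference of 0.06, while genes of its level decile had -0.10. Without scrambled shRNA replicate 1 the difference was -0.54 (adjusted p = 0.161, limma) and without scrambled shRNA replicate 2 it was -0.57 (adjusted p = 0.133, limma). These fits take the spread from the Gld2 shRNA pair alone. It passed without Gld2 shRNA replicate 1 or 2 (adjusted p of 0.0149 and 0.0248, limma).

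Tp53inp1 was the other member that fell. It encodes a stress-induced protein that promotes the death-related activity of p53 and takes part in autophagy. Tp53inp1 (probe set 10867609) stood at 11.21 and 11.07 under knockdown against 11.52 and 11.56 in the controls. Gld2 shRNA replicate 2 was the lowest of the 4, and the groups did not overlap. Group means were 11.14 ± 0.100 (SD, n = 2) and 11.54 ± 0.0229 (SD, n = 2). The log2 difference was -0.40 (SE 0.0722), and its 95% confidence interval ran from -0.58 to -0.22. The level was 75.8% of control (adjusted p = 0.0439, limma). This call lay near the threshold and was lost without Gld2 shRNA replicate 2 (-0.33, adjusted p = 0.0994 in limma). It was also lost without scrambled shRNA replicate 1 (-0.42, adjusted p = 0.312) or scrambled shRNA replicate 2 (-0.38, adjusted p = 0.288), in limma. It held without Gld2 shRNA replicate 1, at -0.47, and was lost with each array centred on the median of the genes tested (-0.33, adjusted p = 0.0778 in limma).

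Sesn1, which encodes a sestrin that limits oxidative damage and restrains the growth kinase mTORC1, was lower in both knockdown cultures but did not pass. Sesn1 stood at 9.69 and 9.53 under knockdown against 9.88 and 9.80 in the controls. Gld2 shRNA replicate 2 was again the lowest. The log2 difference was -0.23 (adjusted p = 0.143, limma), and its 95% confidence interval ran from -0.43 to -0.04. Sesn1 is a long gene of 93093 bp in GRCr8, and genes of its length decile had a median difference of -0.09. Without Gld2 shRNA replicate 1 the difference was -0.31, and without Gld2 shRNA replicate 2 it was -0.15.

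The cell cycle inhibitor and feedback genes with the closest promoter matches or the best known p53 response did not pass. Cdkn1a, which encodes the cyclin-dependent kinase inhibitor p21, stood at 12.60 and 12.58 under knockdown against 12.55 and 12.52 in the controls. Its log2 difference was 0.06 (adjusted p = 0.567, limma), with 95% confidence bounds of -0.09 and 0.20. All 4 cultures were thus nearly alike, although the groups did not overlap. Mdm2 stood at 10.16 and 10.10 against 10.19 and 10.24, a log2 difference of -0.08 with an interval from -0.23 to 0.07 (adjusted p = 0.449, limma). With cyclic loess Mdm2 changed sign, to 0.023. Ccng1, which encodes cyclin G1, a partner of protein phosphatase 2A that acts on MDM2, stood at 12.74 and 12.69 against 12.77 and 12.83. Its log2 difference was -0.08 with an interval from -0.24 to 0.07 (adjusted p = 0.440, limma). The intervals of these 3 genes leave out a change of 1.5-fold in either direction but not a change of a few percent.

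Bax, Bbc3 and Pmaip1, which act at the mitochondrial membrane, had small values above 0, none past the threshold. BAX forms the pores through which death factors leave mitochondria, and PUMA (Bbc3) and NOXA (Pmaip1) are BH3-only proteins that free it from its inhibitors. Bbc3 stood at 9.58 and 9.68 under knockdown against 9.42 and 9.49 in the controls, a log2 difference of 0.18 with an interval from 0.01 to 0.35 (adjusted p = 0.176, limma). Pmaip1 stood at 9.20 and 9.24 against 9.13 and 8.98, a difference of 0.16 with an interval from -0.02 to 0.34 (adjusted p = 0.230, limma). In both genes the knockdown cultures lay above the controls, but neither gene passed. Bax (probe set 10738460) stood at 9.94 and 9.95 against 9.88 and 9.94, a difference of 0.04 with an interval from -0.11 to 0.19 (adjusted p = 0.710, limma). A second, dimmer Bax probe set (10721834) stood at 9.39 and 9.36 against 9.45 and 9.52, a difference of -0.11. The 2 Bax probe sets thus had opposite signs, and neither had an unadjusted p under 0.05. The sign of the brighter one also turned, to -0.030, when the trend with gene length was removed.

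**Figure D2:**
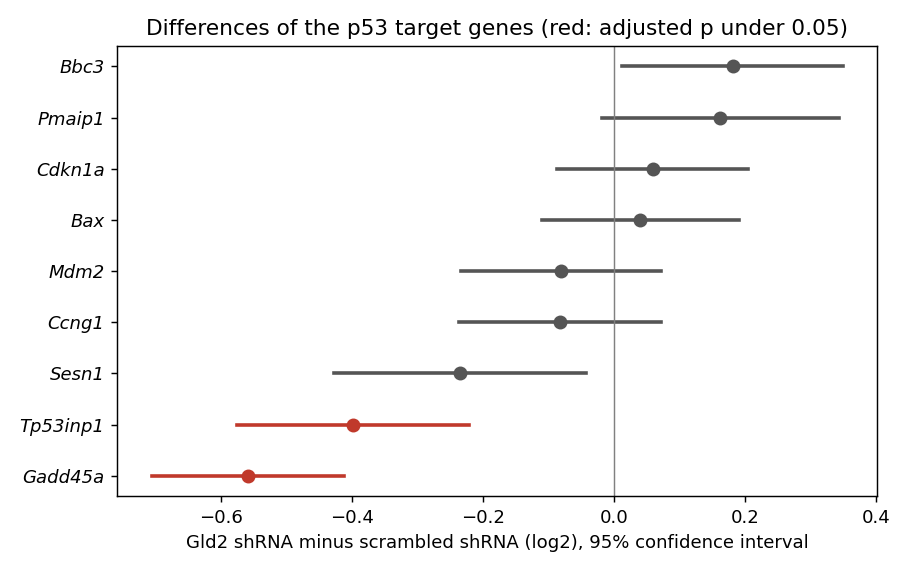
Log2 difference of each p53 target gene, Gld2 shRNA minus scrambled shRNA, with its 95% confidence interval from limma (2 cultures a group). Gadd45a at -0.56 and Tp53inp1 at -0.40 are past the threshold (red), and the intervals of Cdkn1a, Bax, Mdm2, Ccng1 and Pmaip1 span 0.

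Close relatives of the members did not move alike. Of 7 measured paralogs, Sesn3 fell, Gadd45b rose and 5 did not pass. At the same threshold 2.41% of all genes fell and 1.69% rose. Gadd45b, a stress and activity-induced relative of Gadd45a, stood at 9.74 and 9.80 under knockdown against 9.33 and 9.38 in the controls. Its log2 difference was 0.41 (adjusted p = 0.0320, limma), opposite in sign to Gadd45a. Gadd45g, the remaining gene of that family, overlapped between the groups, at 9.44 and 9.27 against 9.34 and 9.43. Sesn3, a sestrin gene under control of FOXO factors, stood at 11.34 and 11.28 against 11.78 and 11.71, a log2 difference of -0.44 (adjusted p = 0.0280, limma). Both sestrin genes measured were below control, of which only Sesn3 passed. Ccng2, a relative of Ccng1, had a log2 difference of -0.21 (adjusted p = 0.114, limma). Its groups did not overlap, as was so for 58.5% of all genes. Cdkn1b and Cdkn1c, which encode the inhibitors p27 and p57, had log2 differences of -0.14 and 0.21 and did not pass. Gadd45b passed in 10 and Sesn3 in 9 of 15 alternatives, and both calls were lost without Gld2 shRNA replicate 2 or without the one or the other scrambled shRNA culture. Sesn3 also lost its call with centring on the median of the genes tested. Over the alternatives tried Gadd45b ran from 0.33 to 0.51 and Sesn3 from -0.47 to -0.37.

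**Figure D3:**
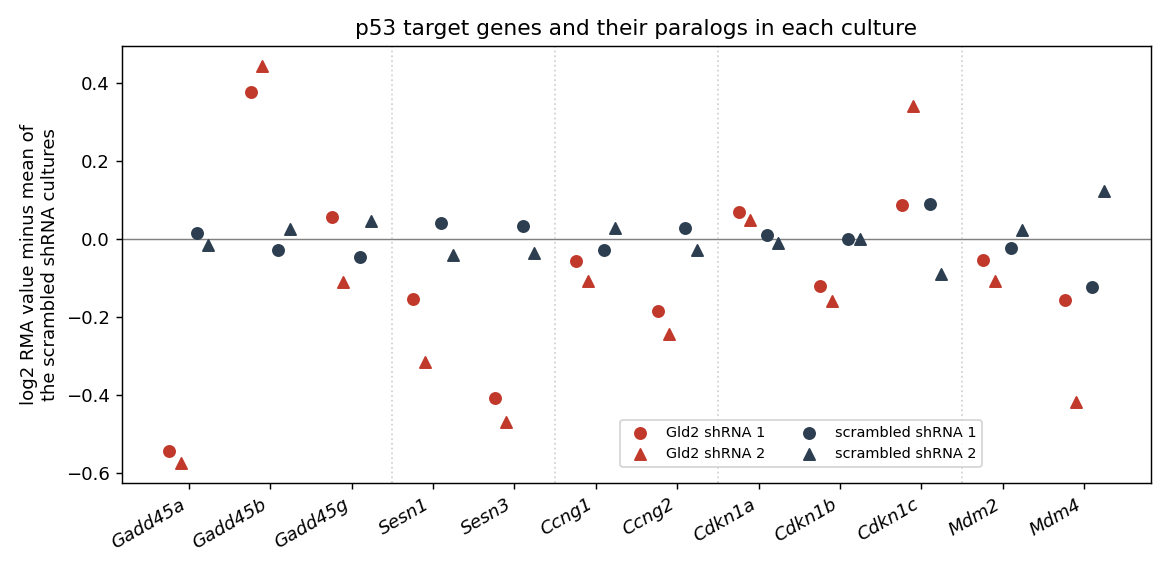
Log2 RMA value in each culture, minus the mean of the scrambled shRNA cultures, for p53 target genes and their paralogs, with dotted lines between families. Gadd45a lies below the controls and Gadd45b above them in both Gld2 shRNA cultures, while Sesn1 and Sesn3 both lie below.

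Of 29 further p53 targets measured, 0 rose, 0 fell and 29 did not pass. The median of this list was -0.07, and 22 of its values were below 0, as were 53.8% of all genes. Genes at or above the median level had a median of -0.06. At an unadjusted p under 0.05, 7 were lower and 3 higher in limma, against 16.2% and 9.24% of all genes. The count was not stable. With a level-dependent prior variance 9 were called, 6 lower and 3 higher. In that setting 2232 of 14497 genes were called, 1611 lower and 621 higher. Among 11 cell death genes, the smallest p belonged to the death receptor gene Tnfrsf10b (log2 difference -0.31, adjusted p = 0.0722) and the apoptosome gene Apaf1 (-0.29, adjusted p = 0.0946), followed by Triap1 (-0.20), all by limma. Tnfrsf10b stood at 7.88 and 7.75 under knockdown against 8.11 and 8.16 in the controls. Its groups did not overlap, as was so for 58.5% of all genes. Among 6 arrest and feedback genes, Rchy1, a ubiquitin ligase gene that acts on p53, had -0.28 (adjusted p = 0.0733, limma), Zmat3 -0.11 and Cop1 -0.12. Among 6 metabolism and autophagy genes, Dram1, a lysosomal regulator of autophagy, had the highest value of the list at 0.37 (adjusted p = 0.102, limma), with Lpin1 at -0.26 and Spata18 at -0.13. The secreted factors Igfbp3, Gdf15 and Thbs1 had -0.28, -0.18 and -0.01. The DNA repair genes Xpc, Rrm2b and Polk had -0.05, -0.14 and -0.004.

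Among 22 measured regulators of p53, Atm fell, Daxx rose and 20 did not pass. Of all genes, 2.41% fell and 1.69% rose. Atm, which encodes the kinase that signals DNA double-strand breaks to p53, stood at 7.51 and 7.43 under knockdown against 7.86 and 8.03 in the controls. Its log2 difference was -0.48 (adjusted p = 0.0370, limma). Daxx, a histone chaperone and MDM2 partner of PML bodies whose gene interferon is known to induce, stood at 10.08 and 9.99 against 9.68 and 9.54, a log2 difference of 0.42 (adjusted p = 0.0431, limma). Neither pair of groups overlapped, as was so for 58.5% of all genes. Daxx passed in 9 of 15 alternatives and Atm in 7 of 14. Both calls were lost without Gld2 shRNA replicate 2, without the one or the other scrambled shRNA culture, and with the trend with gene length removed. Atm also lost its call with centring on the median of the genes tested. The kinase gene Hipk2 had -0.21 (adjusted p = 0.120, limma). Mdm4, the relative of Mdm2 that inhibits p53, stood at 10.03 and 9.76 against 10.06 and 10.30, a log2 difference of -0.29 (adjusted p = 0.201, limma). The list median was -0.07, and 16 of the 22 values were below 0, as were 53.8% of all genes. Genes at or above the median level had a median of -0.06. At an unadjusted p under 0.05, 6 were lower and 1 higher in limma, against 16.2% and 9.24% of all genes.

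In the wider BCL2 family 1 of 12 measured genes rose, 0 fell and 11 did not pass. At the same threshold 1.69% of all genes rose and 2.41% fell. Bak1, which encodes the other pore-forming protein beside BAX, stood at 11.53 and 11.49 under knockdown against 11.20 and 11.14 in the controls. The log2 difference was 0.33 (adjusted p = 0.0473, limma), near the threshold. It passed in 8 of 15 alternatives, and the settings that lost it include fits without Gld2 shRNA replicate 2, without the one or the other scrambled shRNA culture and with the trend with gene length removed. The BH3-only gene Hrk had -0.15 and the survival gene Mcl1 0.18, neither past the threshold. The family median was 0.10, and 9 of its 12 values were above 0, as were 46.2% of all genes. At an unadjusted p under 0.05, 1 was higher and 0 lower (limma), against 9.24% and 16.2% of all genes. Of 18 genes of cell division, which p53 is known to lower through p21 and the DREAM complex, 0 passed in either direction (limma). At an unadjusted p under 0.05, 2 of these 18 were higher and 1 lower (limma), against the same 9.24% and 16.2% of all genes. Their median was -0.04, with Ccnb1 at -0.22, Ccna2 at 0.21 and Aurkb at 0.20.

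**Figure D4:**
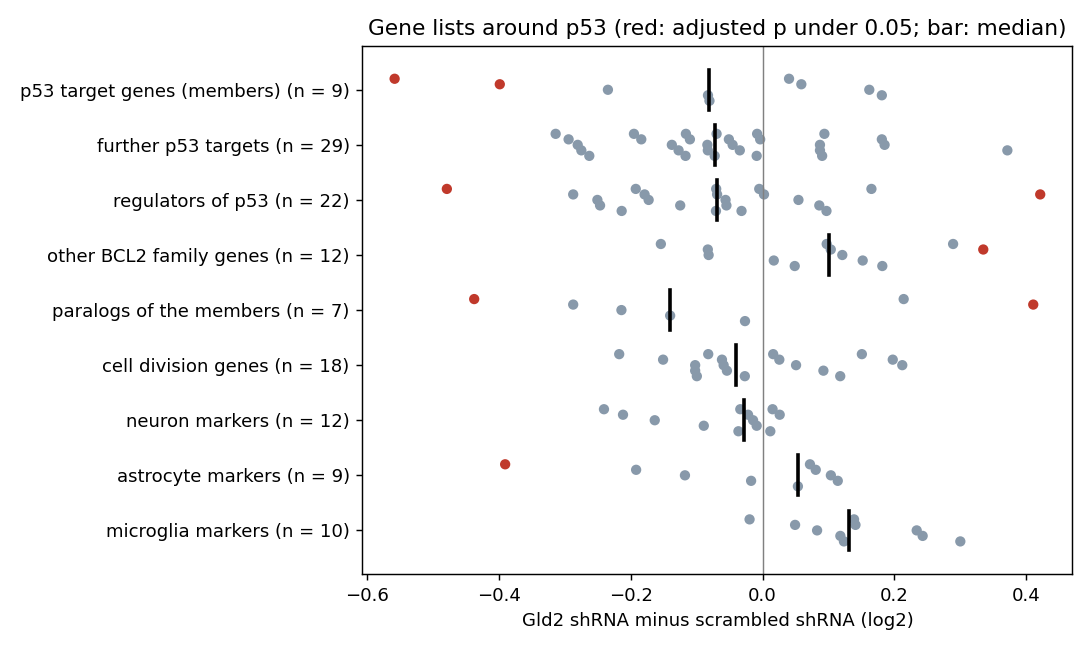
Log2 difference, Gld2 shRNA minus scrambled shRNA, of each measured gene in lists around p53 and in cell type marker lists. Black bars are medians and red points are past the adjusted threshold, and the medians lie between -0.14 (paralogs) and 0.13 (microglia markers).

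The 3 genes whose profile over the 4 arrays was nearest to that of Gadd45a were Cyfip2, Kcnh5 and Gabrg3. The measure was the root mean square distance between log2 values centred on each gene's mean, and it was 0.0102, 0.0159 and 0.0180. Their log2 differences were -0.57, -0.59 and -0.58. With 4 arrays, likeness of this kind says little beyond a difference of the same size.

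The cultures held markers of neurons and of astrocytes. The 12 neuron markers stood between 11.68 and 13.37 in all cultures, and 0 passed the test (limma). At an unadjusted p under 0.05, 3 were lower and 0 higher in limma, against 16.2% and 9.24% of all genes. The neuron marker median was -0.03. The summed log2 level of the list was 150.9 in both Gld2 shRNA cultures and 151.8 and 151.5 in the controls. The 9 measured astrocyte markers stood between 9.08 and 13.30, with a median difference of 0.05, 5 values above 0 and 4 below. Of these, 1, Gja1, fell (-0.39, adjusted p = 0.0351, limma). At the adjusted threshold 2.41% of all genes fell and 1.69% rose. At an unadjusted p under 0.05, 2 astrocyte markers were lower and 0 higher (limma). For this and each further marker list, the shares of all genes are the same 16.2% lower and 9.24% higher. The summed log2 level of the 9 was 106.2 and 105.8 against 106.3 and 106.4. The 10 microglia markers stood between 6.51 and 8.89, with a median difference of 0.13 and 0 past the test (limma; 2 higher and 0 lower at an unadjusted p under 0.05). Their summed log2 level was 78.5 and 79.6 under knockdown and 77.5 and 77.8 in the controls. These are sums of logarithms over a list, not amounts of RNA. Of 8 oligodendrocyte lineage markers, Cnp rose (0.54, adjusted p = 0.0169, limma), and the list median was 0.08. Mbp lay the other way at -0.29 and did not pass (adjusted p = 0.0798, limma). At an unadjusted p under 0.05, 1 oligodendrocyte lineage marker was higher and 1 lower (limma). The 8 endothelial and pericyte markers and the 6 fibroblast markers had medians of 0.03 and 0.04. In either list 0 passed the test (limma). At an unadjusted p under 0.05 in limma, 2 endothelial and pericyte markers were higher and 1 lower. For fibroblast markers it was 1 higher and 0 lower. Without the one or the other scrambled shRNA culture the calls of Gja1 and Cnp were lost, and that of Gja1 also without Gld2 shRNA replicate 2. Gja1 also lost its call with centring on the median of the genes tested. This scale has no true 0, so absence of a marker cannot be read from it. The part of these shifts in the differences of the p53 target genes was not tested, and in such bulk RNA fewer cells of a type and less RNA per cell cannot be told apart.

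The falls of Gadd45a and Tp53inp1 kept their sign under every alternative tried, while their calls did not. Over the alternatives Gadd45a ran from -0.64 to -0.45 and passed in 12 of 15, and Tp53inp1 ran from -0.47 to -0.33 and passed in 8 of 15. Sesn1 ran from -0.31 to -0.13 and passed in 3 of 15. Cdkn1a, Bbc3 and Pmaip1 kept values above 0 and Ccng1 values below 0, with no call in any setting.

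**Figure D5:**
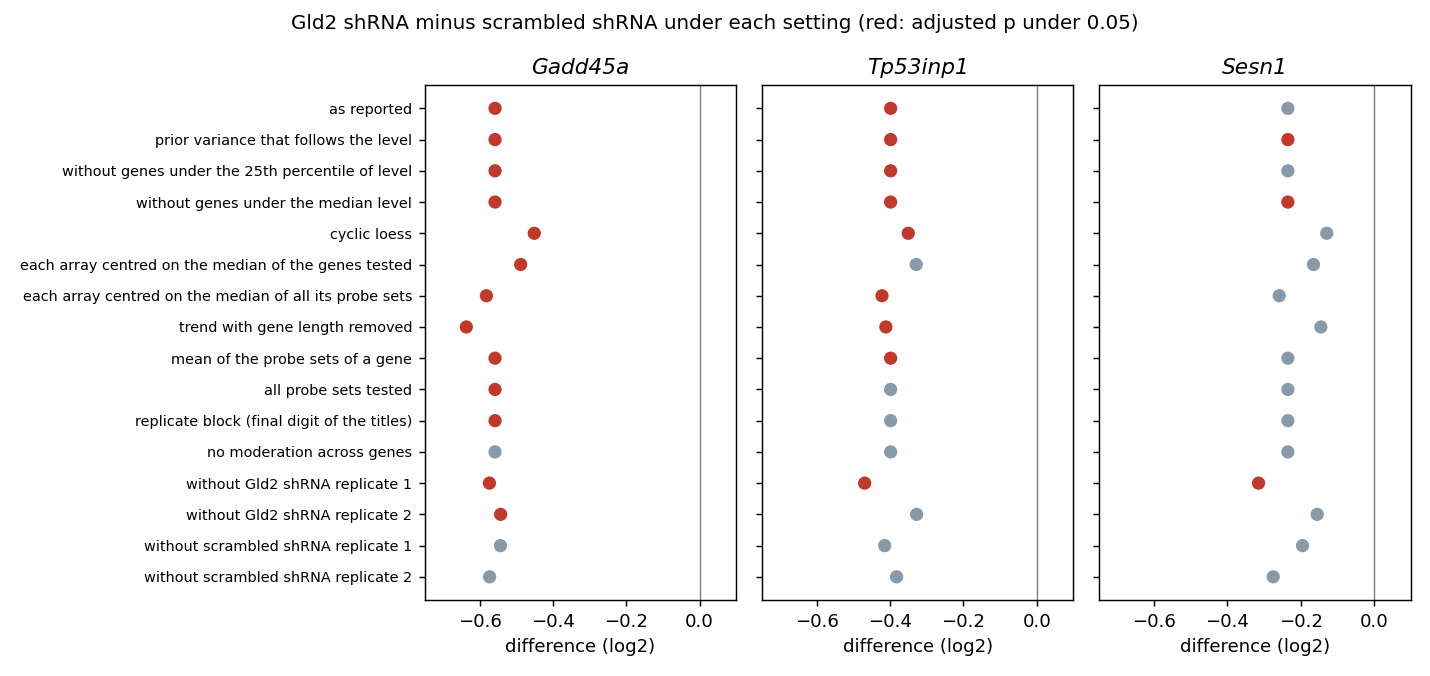
Log2 difference of Gadd45a, Tp53inp1 and Sesn1, Gld2 shRNA minus scrambled shRNA, as reported and under each alternative setting. Red points are past the adjusted threshold of 0.05, and every point lies below 0.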

How the data were processed

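The authors deposited log2 values per probe set, and per the submitters' processing notes these came from RMA and affy. Their versions, probe set definition and settings were not given in the sources used here. That the scale is log2 was judged from the range of the values. No further normalization was applied. Of 28826 probe sets, 15209 carried 1 symbol in the platform annotation, 306 carried several and 13311 carried none. RefSeq of GRCr8 matched 15178 of the identifiers and changed 0 symbols. The probe set with the highest mean was kept for each of 14497 genes. RMA brings arrays to a common distribution, so differences are relative to the other genes on the array, and levels of different probe sets were not compared.

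The test was limma 3.58.1 (lmFit, eBayes; R 4.3.3), two-sided. P-values were adjusted by Benjamini-Hochberg over 14497 genes, and 0.05 was the threshold. Residual degrees of freedom were 2, and moderation contributed 3.96 more. Having only 4 arrays limits the precision. Tested on simulated data of the same layout (14497 genes, Gld2 shRNA against scrambled shRNA), limma called 4% of true 1.25-fold changes, 74% of 1.5-fold, 94% of 2-fold and 100% of 4-fold changes. False calls numbered 9, or 6.21% of calls. The simulation drew independent errors from the spread that limma fitted to these data, with 50 genes changed at each size. It held no trend with gene length or level, so the shares in the real data may differ.

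The members and gene lists (further p53 targets, p53 regulators, BCL2 family, paralogs, cell division, interferon response and cell type markers) were chosen with earlier results of these data known. Named were all members, Tent2, Mdm4, genes of each list past the threshold, the 3 with the smallest p of each list of p53 biology, and the 3 nearest profiles to Gadd45a. Gadd45g, Cdkn1b and Cdkn1c were named to complete their families, after their values were seen. Counts per list are those of genes measured with 1 symbol. Alternatives were a level-dependent prior variance, filters on dim genes, cyclic loess, centring, removal of a lowess trend (span 0.3) with gene length, the mean of probe sets, all probe sets, a replicate block, no moderation, another threshold and leaving out each culture. Centring on the median of all probe sets was added after the data were seen.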

Additional observations from a re-analysis of the deposited data

How the results depend on the processing

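Counts past the threshold, main values 2 for the 9 members, 0 for the further p53 targets, 2 for the regulators, 1 for the BCL2 family and 594 for all genes, moved as follows. With a level-dependent prior variance they were 9 (further targets), 9 (regulators), 2 (BCL2 family) and 2232 (all genes). Without genes under the 25th percentile of level, 4 further targets and 1297 genes were called, and without genes under the median 7 further targets, 6 regulators and 1596 genes. Centring on the median of the genes tested gave 1 member, 1 regulator and 312 genes, and centring on the median of all probe sets, added after the data were seen, gave 6 further targets, 5 regulators and 1925 genes. With the length trend removed, 0 regulators and 0 BCL2 family genes passed. Testing all probe sets gave 1 member, 0 regulators, 0 BCL2 family genes and 313 probe sets. Without moderation 0 members, 0 regulators, 0 BCL2 family genes and 1 gene passed, so a 0 for any list in that setting says nothing about the list. An unadjusted p under 0.05 with at least 1.5-fold gave 0 members, 0 regulators, 0 BCL2 family genes and 211 genes. Leaving out 1 culture gave 0 to 3 members, 0 to 3 further targets, 0 to 3 regulators, 0 to 2 BCL2 family genes and 85 to 2689 genes. These fits assume that the lone culture varies as the other pair does. The final digits of the titles as a replicate block gave 1 member, 0 BCL2 family genes and 565 genes, with Tp53inp1 at an adjusted p of 0.0516 and Gadd45a at 0.0170 in limma. Over genes the deviations of same-numbered cultures correlated at 0.143, and the labels do not say that the digits pair cultures. Signs turned for Mdm2 with cyclic loess (0.023) and for Bax with the length trend removed (-0.030) and with the mean of its probe sets (-0.035), none of them called. The cause of these moves was not tested. Pmaip1 lay under the median level, so that filter gave no value for it. Detection calls were not analysed here, so which members lie above background is unknown.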
